A study of Mus musculus with 9 samples.

Results

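The genes described here encode the proteins of the mitochondrial ribosome, taken as the protein-coding genes whose symbol in the GENCODE M21 annotation of the mouse build GRCm38 starts with Mrpl or Mrps followed by a digit. The annotation holds 78 such genes and 77 were found by Ensembl ID among the 38293 genes of the count table; Mrpl33 is not analysed here. Of the 77, 76 passed edgeR's filter on low counts, as did 14124 genes in all. The exception was Mrpl53, with 1 count in all 9 libraries together. The members lie on 17 chromosomes, with 11 on chromosome 11 and 8 on chromosome 17.

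RNA came from the left ventricle of male C57BL/6 mice, 8 weeks old per the labels, in 3 groups of 3. In the first group tissue from the infarct region was taken 1 day after ischemia-reperfusion (I/R), in which the left anterior descending coronary artery was tied for 1 hour and then released. The second group had the same operation and was examined at 14 days. The third had a sham operation, with a collection time that the labels do not give. All 9 mice were of 1 strain and no genetic change or drug is named. Each mouse gave 1 library of total RNA, depleted of ribosomal RNA and made strand-specific. The labels number the mice 4, 5 and 6 at 1 day and 1, 2 and 3 in sham. In the count table the 14-day columns carry a single name and cannot be tied to mice; A, B and C stand for them here. The tissue label of sham is the same as that of the operated groups.

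As background, the mitochondrial ribosome sits in the matrix at the inner membrane and translates the few mRNAs of the mitochondrial genome, all of which encode subunits of the respiratory chain and the ATP synthase. Its RNAs come from the mitochondrial genome, whereas all of its proteins are encoded in the nucleus, made on cytosolic ribosomes and imported. The large subunit forms peptide bonds and holds the exit tunnel, and the small subunit decodes the mRNA. Many of the proteins descend from the bacterial ribosome and the others are specific to mitochondria. The heart, which relies on oxidative metabolism, is among the tissues richest in mitochondria.

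Total counts per library were 20215781 to 36816818, or 7217019 to 15969149 without ribosomal RNA genes. The tested members had a median of 314.5 counts per library, with a range of 4 to 1470. In a principal component analysis of all tested genes, the first component held 63.2% of the variance. On it mouse 6, at 41.1, was nearer to the 14-day and sham libraries, which spanned -44.8 to -17.8, than mice 4 (82.7) and 5 (84.6) were. Of the markers of ventricular muscle, 12 cardiomyocyte genes were all detected and together made up 69757 ± 3571 CPM in sham (SD, n = 3). CPM (the usual count relative to library size) follows scaling by the trimmed mean of M-values (TMM).

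Levels of the members, set per kilobase of exon so that genes can be compared, spanned 0.0931 to 22.5 CPM per kb over the 9 libraries. Mrps23, a small-subunit protein specific to mitochondria, was at the top with 22.5 CPM per kb. It was followed by Mrps21 at 17.4, Mrpl55 at 15.6, Mrpl34 and Mrpl28 at 15.5 each and Mrpl54 at 14.7 CPM per kb. Mrps21 has a near-identical copy elsewhere in the genome, so its level is uncertain. The lowest was Mrpl23, the counterpart of a bacterial protein at the rim of the exit tunnel, at 0.0931 CPM per kb. Mrpl23 had 22, 7 and 11 counts at 1 day, 15, 12 and 13 at 14 days and 19, 11 and 4 in sham, too few to show a difference of the size seen in most members. Mrps36, Mrps10 and Mrpl48 were next lowest, at 0.463, 0.682 and 0.715 CPM per kb. Exon length counts every annotated exon of a gene, which lowers the value of genes with long, rarely used exons.

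At 1 day after I/R the members were mostly lower than in sham, relative to the median gene. Of 76, 53 fell and 2 rose (edgeR quasi-likelihood test, adjusted p under 0.05), where 24.8% of all tested genes fell and 29.4% rose. The median log2 fold of the members was -0.47 with quartiles at -0.66 and -0.23, and that of all genes was 0.04. In 64 members all 1-day libraries were below all sham libraries, and in 2 all were above, against 29.7% and 33.5% of all genes. When libraries were scaled by total count alone, the median of all genes moved to 0.53 and that of the members to 0.01, so the distance of the members from the median gene was -0.52 log2 under both scalings. A change of scaling shifts all genes by nearly the same amount, so this distance could hardly change and adds no support. Under total count alone 9 members fell and 6 rose, where 7.48% of all genes fell and 48.6% rose. The 9 were Mrps35, Mrpl14, Mrpl55, Mrpl39, Mrpl42, Mrpl34, Mrpl18, Mrps9 and Mrpl3. The total includes ribosomal RNA genes, whose share differed between libraries. Without them 15969149 of 30209130 counts were left in mouse 4 and 7217019 of 20215781 in sham mouse 3. The part of this in the shift was not tested. With mitochondrially encoded and ribosomal RNA genes left out and TMM scaling, 55 members fell and 2 rose. Their median was -0.49, with 0.03 for all genes, of which 3593 of 14106 fell and 4047 rose.

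The summed CPM of the members were 800.3, 792.5 and 891.3 in mice 4, 5 and 6, against 1151, 1195 and 1191 in sham mice 1, 2 and 3. The 1-day sum was 70.2% ± 4.66 of the sham mean (SD, n = 3), and no 1-day library reached a sham library. Mouse 6 had the highest sum of its group. Per library, the median member lay at -0.47, -0.50 and -0.35 on the log2(CPM + 0.5) scale relative to sham in mice 4, 5 and 6. In bulk tissue, fewer cells of a type and less RNA per cell cannot be told apart. Over the same libraries the 12 cardiomyocyte markers summed to 35126 to 53229 CPM at 1 day and to 65912 to 72970 CPM in sham. All 12 had log2 folds below 0 at 1 day and 9 were called lower (edgeR adjusted p under 0.05). The 12 neutrophil markers, of which Ly6g had 0 counts, summed to 54.7 to 150.7 CPM at 1 day and to 2.60 to 6.84 CPM in sham. The part of these shifts in the members' results was not tested.

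**Figure D1:**
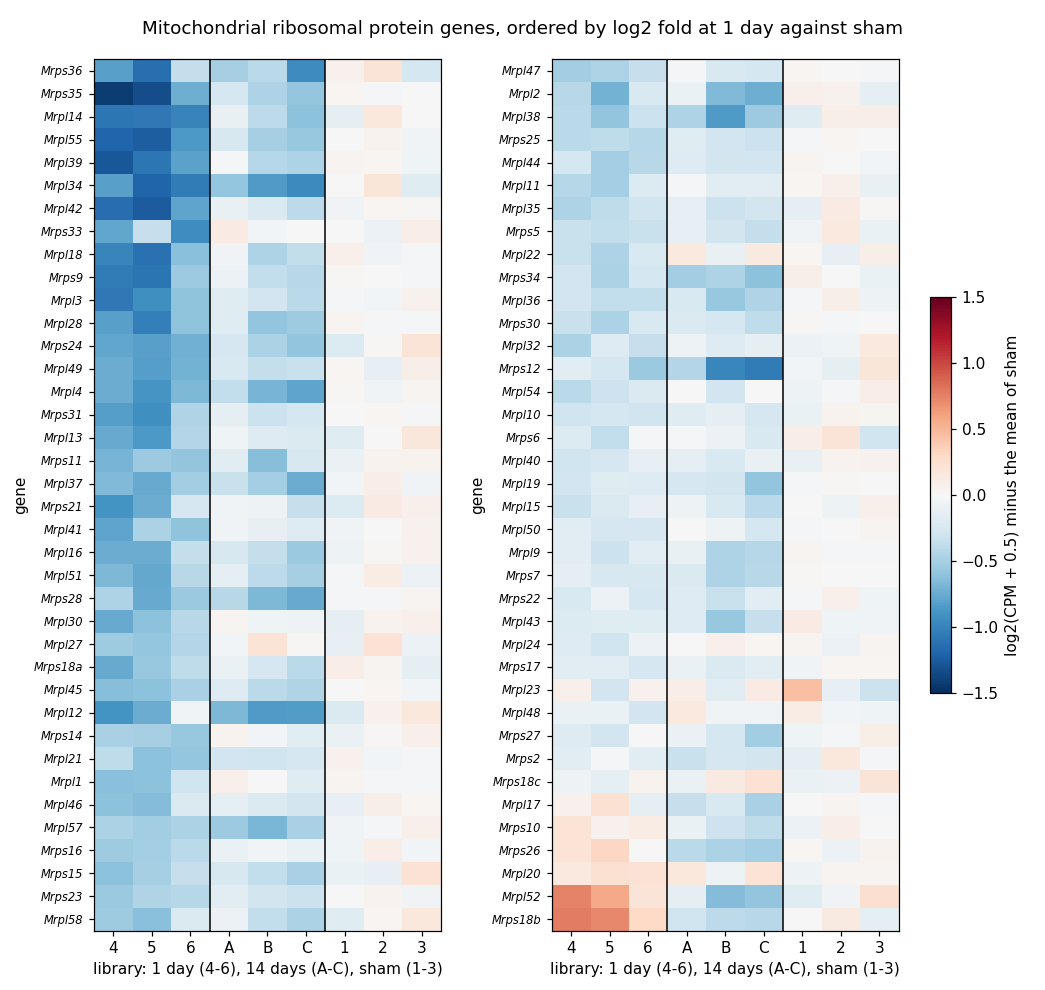
Log2(CPM + 0.5) of the 76 tested members (rows) in each of the 9 libraries (columns: 1 day, 14 days, sham), minus the mean of the 3 sham libraries. Genes are ordered by their log2 fold at 1 day. Blue marks levels below sham and red above, after TMM scaling. Most cells of the 1-day columns are blue, mouse 6 less so, and Mrps18b and Mrpl52 at the lower right are red. Under total count alone the median 1-day fold is 0.01 in place of -0.47, with 0.53 for all genes.

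After Mrps36, which had few counts, the largest falls at 1 day were in Mrps35, Mrpl14, Mrpl55, Mrpl39, Mrpl34 and Mrpl42, with fitted 1-day levels of 0.445 to 0.477 times those of sham. Mrps35 (mS35, small subunit, specific to mitochondria; ENSMUSG00000040112, chromosome 6, 147042764 to 147073991, GRCm38) had 10.3, 10.96 and 16.9 CPM at 1 day, against 28.9, 28.1 and 28.2 CPM in sham. The groups did not overlap, and mouse 6 was the nearest to sham (log2 fold -1.17, SE 0.17, edgeR adjusted p = 0.000273). Mrpl55 (bL31, part of the central protuberance of the large subunit; chromosome 11, 59202486 to 59206134) had 9.28, 8.98 and 11.8 CPM at 1 day, against 21.7, 22.8 and 21.1 CPM in sham. Its groups were also apart, with a log2 fold of -1.13 (SE 0.12, edgeR adjusted p = 5.58e-05). Mrpl39 (mL39, related to threonyl-tRNA synthetases and placed near the tunnel exit; chromosome 16, 84717576 to 84735742) had 9.26, 10.6 and 13.0 CPM at 1 day, against 23.7, 23.4 and 22.05 CPM in sham. Every 1-day value was well below every sham value (log2 fold -1.09, SE 0.14, edgeR adjusted p = 0.00015). Mrpl42 (mL42; chromosome 10, 95480805 to 95501940), among the members with the most counts, had 20.2, 18.6 and 25.8 CPM at 1 day, against 43.5, 46.0 and 45.6 CPM in sham. The log2 fold was -1.07 (SE 0.12, edgeR adjusted p = 6.52e-05).

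Mrpl14 (uL14, at the face of the large subunit that meets the small one) had a log2 fold of -1.14 and Mrpl34 (bL34) one of -1.07, with edgeR adjusted p of 0.000129 and 0.000182. Mrpl14 had 400 counts in all at 1 day and 676 in sham. It shares 11.2% of its exonic bases with Tmem63b on the other strand, which had 1978 and 2743 counts and a log2 fold of -0.84. Mrps33 (mS33) fell by 0.94 on the log2 scale, from few counts: 33, 30 and 14 at 1 day against 39, 45 and 28 in sham (edgeR adjusted p = 0.00749). Mrps36 had the lowest log2 fold, -1.45 (SE 0.43, edgeR adjusted p = 0.0138), with 14, 4 and 14 counts at 1 day against 24, 34 and 11 in sham. These counts overlap between the groups, although the CPM do not, and the call was lost under total count alone and without sham mouse 2, mouse 4 or mouse 5. Its product is now described as a subunit of the oxoglutarate dehydrogenase complex rather than of the ribosome, and it is counted here by its name.

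Mrps18b and Mrpl52 rose at 1 day. Mrps18b (mS40, a small-subunit protein related to bacterial S18; ENSMUSG00000024436, chromosome 17, 35910379 to 35916389, GRCm38) had 7.45, 7.15 and 5.24 CPM at 1 day, against 4.19, 4.62 and 3.71 CPM in sham. All 1-day libraries were above all sham libraries, mouse 6 by the least (log2 fold 0.66, SE 0.15, edgeR adjusted p = 0.00374). The call held under each of the 19 alternatives tried, with log2 folds of 0.53 to 1.16. Mrps18b shares 30.5% of its exonic bases with the antisense gene Gm16279, which had 14 counts in all at 1 day and 21 in sham, where Mrps18b had 626 and 295. Mrpl52 (mL52, large subunit; ENSMUSG00000010406, chromosome 14, 54426909 to 54429756) had 11.9, 10.5 and 7.98 CPM at 1 day, against 6.03, 6.64 and 8.24 CPM in sham. Mouse 6 lay below sham mouse 3, so the groups overlapped (log2 fold 0.56, SE 0.19, edgeR adjusted p = 0.0241). Without sham mouse 1 or 2, or without mouse 4 or 5, the call was lost, with log2 folds down to 0.39. Mrpl20 (bL20) was the other member whose 1-day libraries all lay above sham, with 13.4, 14.1 and 14.0 CPM at 1 day against 11.3, 12.4 and 12.4 CPM in sham, a log2 fold of 0.20 that did not pass (edgeR adjusted p = 0.11). Mrpl20 is named here because of that pattern.

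**Figure D2:**
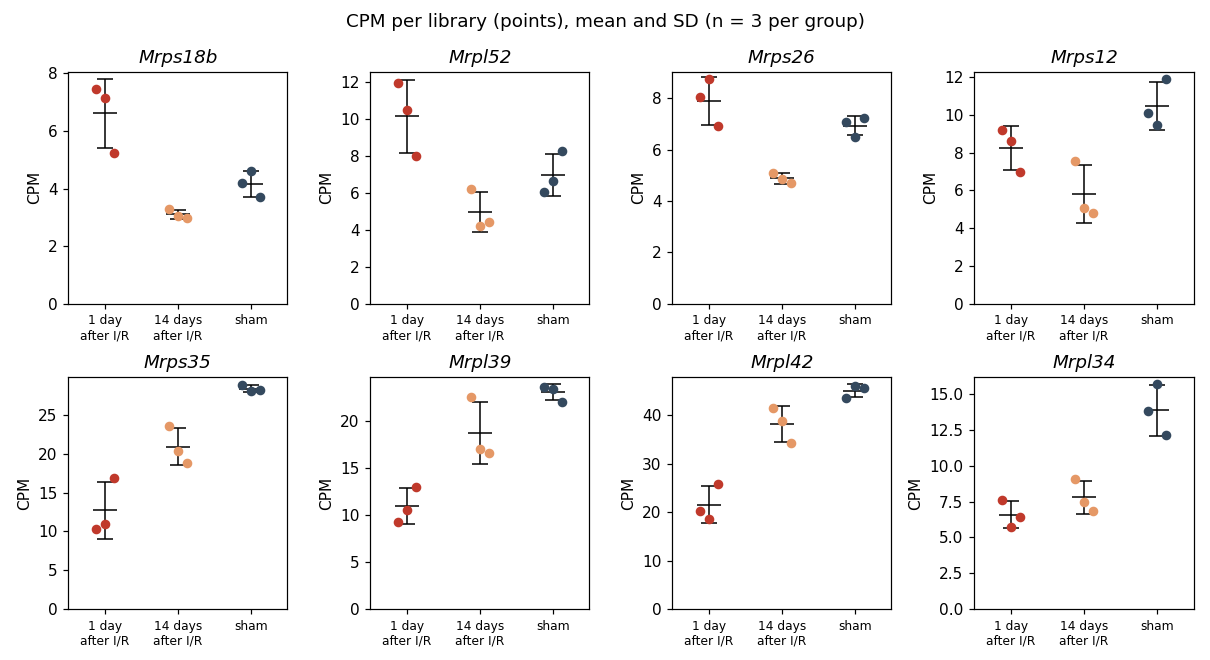
CPM per library (points; 1 day, 14 days and sham from left to right) of 8 members, with the mean and SD of each group (n = 3). The members in the upper row were lower at 14 days than at 1 day, and Mrps18b had 6.61 ± 1.20, 3.11 ± 0.161 and 4.17 ± 0.456 CPM at 1 day, 14 days and in sham. In the lower row all 1-day points of Mrps35, Mrpl39, Mrpl42 and Mrpl34 are below all sham points.

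The promoters of these genes are shown for 4 members that the results turn on: Mrps18b and Mrpl52, which rose, Mrpl39, which fell, and Mrps12, whose lowest values came at 14 days. Each line runs 5′ to 3′ from 150 bases before to 30 after the RefSeq start site (GRCm38.p6), in lower case, with capitals at the motifs named after the list.
Mrps18b, chr17:35916411-35916590, minus strand: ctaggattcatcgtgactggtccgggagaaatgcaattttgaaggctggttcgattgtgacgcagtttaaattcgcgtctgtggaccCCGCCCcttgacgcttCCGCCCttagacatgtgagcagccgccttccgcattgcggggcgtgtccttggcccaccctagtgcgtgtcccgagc
Mrpl52, chr14:54426759-54426938, plus strand: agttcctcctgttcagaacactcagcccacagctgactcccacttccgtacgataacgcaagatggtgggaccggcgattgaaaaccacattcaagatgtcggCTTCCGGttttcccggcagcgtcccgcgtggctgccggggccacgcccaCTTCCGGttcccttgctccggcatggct
Mrpl39, chr16:84735215-84735394, minus strand: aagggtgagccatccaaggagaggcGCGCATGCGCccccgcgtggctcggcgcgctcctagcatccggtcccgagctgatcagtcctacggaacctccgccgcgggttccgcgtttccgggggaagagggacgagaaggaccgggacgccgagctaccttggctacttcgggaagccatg
Mrps12, chr7:28741792-28741971, minus strand: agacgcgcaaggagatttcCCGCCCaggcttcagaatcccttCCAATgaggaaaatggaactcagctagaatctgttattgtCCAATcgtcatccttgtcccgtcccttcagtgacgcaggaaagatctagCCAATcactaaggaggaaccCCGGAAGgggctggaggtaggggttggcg
Searched on both strands, the capitals mark the ETS site CCGGAAG (bound by GABP) in Mrpl52 and Mrps12, the full site of the nuclear respiratory factor NRF1 in Mrpl39, the SP site GGGCGG in Mrps18b and Mrps12, and the box CCAAT in Mrps12. In the same stretch Mrpl42 and Mrpl55, which also fell at 1 day, held the SP site alone of the motifs searched. The stretch printed for Mrpl39 lies inside that gene as GENCODE places it, so GENCODE and RefSeq differ on its start. Over windows of 250 bases before to 50 after the start, 67 of the 76 tested members had an entry, with 73 windows. The ETS site was in 32.9% of member windows, 16.6% of the windows of all tested genes and 8.86% of all windows. The YY1 site AAGATGGC was in 16.4%, 4.20% and 2.75%. A shorter NRF1 motif, TGCGCA, which is not contained in the full site but can overlap its end, was in 30.1%, 12.9% and 7.76%, and the full site in 4.11%, 1.94% and 0.971%. The SP site was in 53.4%, 61.1% and 35.7%, the CCAAT box in 38.4%, 37.2% and 37.4%, the E-box CACGTG in 9.59%, 9.80% and 7.15%, and the TATA letters TATAAA in 6.85%, 7.46% and 13.6%. The site TCAAGGTCA of estrogen-related receptors was in 0 member windows and 0.423% of all windows. These windows are wider than the stretches printed and hold further sites. In them Mrps18b also had the ETS site and the shorter NRF1 motif. Mrpl39 also had the CCAAT box, Mrps12 the YY1 site, and Mrpl42 both of these. Of the 49 windows of members that fell at 1 day, 28.6% held the ETS site, 44.9% the CCAAT box, 49.0% the SP site, 18.4% the YY1 site, 30.6% the shorter NRF1 motif and 4.08% the full one. Of the 24 windows of the other members these shares were 41.7%, 25%, 62.5%, 12.5%, 29.2% and 4.17%. The E-box was in 10.2% and 8.33%, and the TATA letters in 6.12% and 8.33%. These differences were not tested. These are matches of letters and were not tested against binding.

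Genes for the factors that act on such sites were measured in the same libraries. Of 9 such genes 4 fell and 2 rose at 1 day, or 1 fell and 4 rose under total count alone. Of all genes 24.8% fell and 29.4% rose, or 7.48% and 48.6% under total count alone. Ppargc1a, the coactivator best known for driving mitochondrial biogenesis, fell by 1.31 on the log2 scale at 1 day (edgeR adjusted p = 0.000597), and Gabpa, the DNA-binding subunit of GABP, fell by 0.59 (edgeR adjusted p = 0.000447). Ppargc1b and Esrra also fell, with log2 folds of -0.59 and -0.57. Pprc1, a relative of Ppargc1a induced by growth signals, rose by 1.51 and Myc by 3.66. Nrf1, Yy1 and Gabpb1 did not pass, with log2 folds of -0.04, 0.07 and 0.04. At 14 days against sham Esrra fell, with a log2 fold of -0.81, and Myc rose, with one of 1.22, and the other 7 of these 9 genes did not pass. With limma-voom 0 of the 9 rose at 14 days, so the call of Myc was lost.

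Both subunits were lower at 1 day relative to the median gene; under total count alone the medians of the large and small subunits were 0.00 and 0.08, with 0.53 for all genes. Of 49 large-subunit members 37 fell and 1 rose, with a median log2 fold of -0.48, and of 26 small-subunit members 15 fell and 1 rose, with a median of -0.40. After TMM scaling 24.8% of all tested genes fell at 1 day and 29.4% rose. The summed CPM of the small subunit over that of the large was 0.436 ± 0.0137 at 1 day, 0.405 ± 0.00528 at 14 days and 0.412 ± 0.00247 in sham (SD, n = 3). Mice 4, 5 and 6 had ratios of 0.440, 0.447 and 0.420, all above the highest sham ratio of 0.414. Members with a bacterial homologue (45, of which 31 fell) and members specific to mitochondria (30, of which 21 fell) had the same median of -0.47. Mrps18b and Mrpl52 are in the second of these sets, Mrps18b although it is related to bacterial S18. Under edgeR, DESeq2 and limma-voom 0 of those with a bacterial homologue rose, and 0 were higher at an unadjusted p under 0.05. These counts of 0 depend on where Mrps18b is placed. Under total count alone 3 of those with a bacterial homologue rose, where 48.6% of all genes did. Within the large subunit, the 4 tested members of the stalk, which recruits translation factors, all fell. They were Mrpl10, Mrpl11, Mrpl12 and Mrpl54, with log2 folds of -0.30, -0.40, -0.55 and -0.33. The call of Mrpl54 was lost without sham mouse 2 or 3 and without mouse 4 or 5. That of Mrpl12 was lost without mouse 4 or 5, without sham mouse 2 or 3, without library B or C, with the 2 groups alone and with no filter on low counts.

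After TMM scaling 24.8% of all tested genes fell at 1 day. At the rim of the exit tunnel, where the new chain leaves the ribosome, 5 of 8 members fell at 1 day. Mrpl39, Mrpl45 (mL45, which holds the ribosome to the inner membrane), Mrpl47, Mrpl44 (mL44, related to RNase III) and Mrpl22 had log2 folds of -1.09, -0.59, -0.47, -0.41 and -0.38. The call of Mrpl22 was lost with no filter on low counts, with the GC and length offset, without sham mouse 1 or 3 and without mouse 4 or 5. Mrpl24, Mrpl23 and Mrpl17 did not pass, at -0.20, -0.18 and 0.06. In the central protuberance, which in bacteria is built around a small ribosomal RNA, 6 of 8 fell. Mrpl55, Mrpl18, Mrpl27, Mrpl46, Mrpl58 and Mrpl38 had log2 folds of -1.13, -0.93, -0.60, -0.52, -0.48 and -0.46. Mrpl58 is a peptidyl-tRNA hydrolase that frees stalled ribosomes; its call was lost without sham mouse 3 and without mouse 4 or 5. Mrpl40 and Mrpl48 did not pass, at -0.24 and -0.17. Under total count alone 0 stalk members, 1 of the tunnel rim and 2 of the central protuberance fell, where 7.48% of all genes did. Mrpl22 and Mrpl27 each have a near-identical copy elsewhere in the genome, and Mrpl47 shares 13.9% of its exonic bases with the respiratory chain gene Ndufb5. Ndufb5 had 6243 counts in all at 1 day and 8337 in sham, where Mrpl47 had 772 and 815.

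The S18 paralogs differed. Mrps18a (mL66, which sits in the large subunit) fell at 1 day, with 10.3, 11.7 and 13.4 CPM against 19.0, 18.1 and 15.8 CPM in sham (log2 fold -0.59, SE 0.12, edgeR adjusted p = 0.00196). Mrps18c (bS18, in the position of the bacterial protein) had 5.18, 4.88 and 5.69 CPM at 1 day, against 5.07, 5.12 and 6.33 CPM in sham. Its groups overlapped (log2 fold -0.06, SE 0.14, edgeR adjusted p = 0.745). Mrps18b, as above, rose. The differences between the paralogs' folds were not tested.

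At 14 days against sham, 20 of 76 members fell and 0 rose (edgeR adjusted p under 0.05), where 5.64% of all tested genes fell and 8.75% rose. No member was higher at an unadjusted p under 0.05, and none rose with DESeq2 or limma-voom. The median log2 fold was -0.29, with quartiles at -0.40 and -0.16, against 0.01 for all genes. In 48 members all 14-day libraries were below all sham libraries and in 0 above, against 18.4% and 21.0% of all genes. The summed CPM were 1052, 933.2 and 903.2 in libraries A, B and C, which is 81.7% ± 6.67 of the sham mean (SD, n = 3). Library A was nearest to sham, and the highest 14-day sum was below the lowest of sham, 1151. Fibroblast markers summed to 4029 ± 1619 CPM at 14 days and 1151 ± 260 CPM in sham (SD, n = 3), with 2546, 3785 and 5757 CPM in A, B and C; the median member lay at -0.14, -0.29 and -0.38 relative to sham in the same 3 libraries. The 12 cardiomyocyte markers summed to 66365, 56717 and 51225 CPM in A, B and C. The part of these shifts in the result was not tested.

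The count at 14 days rested on single libraries. It was 32 without library A and 6 and 7 without libraries B and C. It was 10, 6 and 8 without sham mouse 1, 2 or 3, and 34 without mouse 6 of the 1-day group, which belongs to neither group compared but enters the shared estimate of spread and the filter on low counts. With the 14-day and sham libraries alone it was 35, and under total count alone 3 (Mrpl34, Mrpl12 and Mrps12) while 0 rose, where 0.793% of all genes fell and 5.1% rose. Of the 20, 4 were called in each fit that left out 1 library and in every other alternative but total count. They were Mrpl34, Mrpl4, Mrpl57 and Mrps28.

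Mrpl34 (ENSMUSG00000034880, chromosome 8, 71464959 to 71465747) had 9.07, 7.48 and 6.87 CPM at 14 days, against 13.9, 15.7 and 12.1 CPM in sham. It was low in every 14-day library and as low at 1 day, with 7.63, 5.72 and 6.45 CPM (14 days against sham: log2 fold -0.84, SE 0.14, edgeR adjusted p = 0.00561). Mrpl4 (uL4, which lines the exit tunnel) had 14.6, 11.5 and 10.8 CPM at 14 days, against 19.2, 18.3 and 19.5 CPM in sham (log2 fold -0.62, SE 0.12, edgeR adjusted p = 0.00721). Mrpl57 (mL63) and Mrps28 (bS1) had log2 folds of -0.61 and -0.64, again with no overlap between the groups. Both were as low at 14 days as at 1 day: Mrps28 averaged 8.23 ± 0.875 CPM at 1 day, 8.07 ± 1.07 CPM at 14 days and 12.6 ± 0.346 CPM in sham (SD, n = 3).

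Mrps12 (uS12, the protein of the decoding site; ENSMUSG00000045948, chromosome 7, 28739641 to 28741820) had 7.55, 5.04 and 4.78 CPM at 14 days, against 10.1, 9.44 and 11.9 CPM in sham. All 14-day values were below all sham values, B and C most (log2 fold -0.84, SE 0.18, edgeR adjusted p = 0.012); without library B the call was lost. At 1 day its log2 fold was -0.33 and did not pass (edgeR adjusted p = 0.133). Mrps12 starts 172 bases from Sars2, the mitochondrial seryl-tRNA synthetase gene on the other strand, whose log2 folds were -0.17 at 1 day and -0.84 at 14 days (edgeR adjusted p = 0.462 and 0.0184). Mrpl12 (bL12), which in several organisms also binds the mitochondrial RNA polymerase, had 13.1, 11.5 and 11.7 CPM at 14 days, against 18.1, 22.2 and 23.7 CPM in sham (log2 fold -0.82, SE 0.20, edgeR adjusted p = 0.0248). Its call was lost without sham mouse 2 or 3 or library B or C. Mrpl38 (mL38) and Mrps34 (mS34, needed for a stable small subunit) had log2 folds of -0.64 and -0.57; Mrps34 shares 63.4% of its exonic bases with Mapk8ip3 on the other strand. With an offset for GC content and length, the calls of Mrpl38 and Mrps34 were lost. The call of Mrpl38 was also lost without sham mouse 2.

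The comparisons of 1 day and 14 days with sham share the sham libraries. Side by side, 14 members were called lower at both times and 6 at 14 days alone. That a member passed at 1 time and not at the other does not show that the times differ; the direct comparison follows.

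Between 14 days and 1 day, 28 members were higher at 14 days and 6 lower (edgeR adjusted p under 0.05), where 25.1% of all tested genes were higher and 26.8% lower. The median log2 fold of the members was 0.18, with quartiles at -0.03 and 0.43, and that of all genes 0.00. In 31 members the 14-day libraries were all above the 1-day libraries and in 6 all below, against 27.3% and 29.0% of all genes. Under total count alone the median of all genes was -0.38 and that of the members -0.21, and 1 member (Mrpl42) was higher and 16 lower, where 7.55% of all genes were higher and 38.7% lower. Of the 28 that were higher at 14 days, 27 had fallen at 1 day against sham, and 5 of these 27 were also called lower than sham at 14 days. The count of 28 was 18 without mouse 5 and 18 without library A.

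The 8 members with the largest rises between 1 day and 14 days had all fallen at 1 day. Mrpl42 had 41.5, 38.8 and 34.2 CPM at 14 days, against 20.2, 18.6 and 25.8 CPM at 1 day. The groups did not overlap and the log2 fold was 0.83 (SE 0.12, edgeR adjusted p = 0.000261). Mrpl39 had 22.5, 17.0 and 16.6 CPM at 14 days, against 9.26, 10.6 and 13.0 CPM at 1 day (log2 fold 0.78, SE 0.14, edgeR adjusted p = 0.001). Library A was within the range of sham for Mrpl39, and B and C were below it. Mrps33, Mrpl14, Mrps35, Mrpl55, Mrpl27 and Mrpl18 had log2 folds of 0.98, 0.76, 0.73, 0.69, 0.65 and 0.64. Since the same 1-day libraries enter both comparisons, a low 1-day value raises the 14-day fold by itself.

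The 6 members that were lower at 14 days than at 1 day were Mrps18b, Mrpl52, Mrps26, Mrps12, Mrps10 and Mrpl17. Mrps18b had 3.29, 3.05 and 2.98 CPM at 14 days, against 7.45, 7.15 and 5.24 CPM at 1 day. Every 14-day library was also below every sham library, although 14 days against sham did not pass (log2 fold -0.44, edgeR adjusted p = 0.0947). Against 1 day the log2 fold was -1.10 (SE 0.15, edgeR adjusted p = 0.000225). Mrpl52 had 6.20, 4.22 and 4.42 CPM at 14 days, against 11.9, 10.5 and 7.98 CPM at 1 day, with no overlap (log2 fold -1.04, SE 0.19, edgeR adjusted p = 0.000949). Mrps26 (mS26) had 5.09, 4.84 and 4.70 CPM at 14 days, against 8.03, 8.74 and 6.90 CPM at 1 day and 7.08, 6.50 and 7.22 CPM in sham. It was low at 14 days against both other groups, with a log2 fold of -0.70 (SE 0.12, edgeR adjusted p = 0.00065) against 1 day and -0.50 (SE 0.12, edgeR adjusted p = 0.0194) against sham. The second of these calls was lost without any 1 of the sham mice and without library B or C. Mrps10 (uS10) and Mrpl17 (bL17) had log2 folds of -0.43 and -0.42 against 1 day and did not pass at 1 day against sham, at 0.14 and 0.06. The 14-day against 1-day calls of Mrps18b, Mrpl52, Mrps26 and Mrpl17 held in each fit that left out 1 library. That of Mrps12 was lost without mouse 4 or 5, without library B or C, with the 2 groups alone and with the GC and length offset. That of Mrps10 was lost without mouse 4 or without library B or C.

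**Figure D3:**
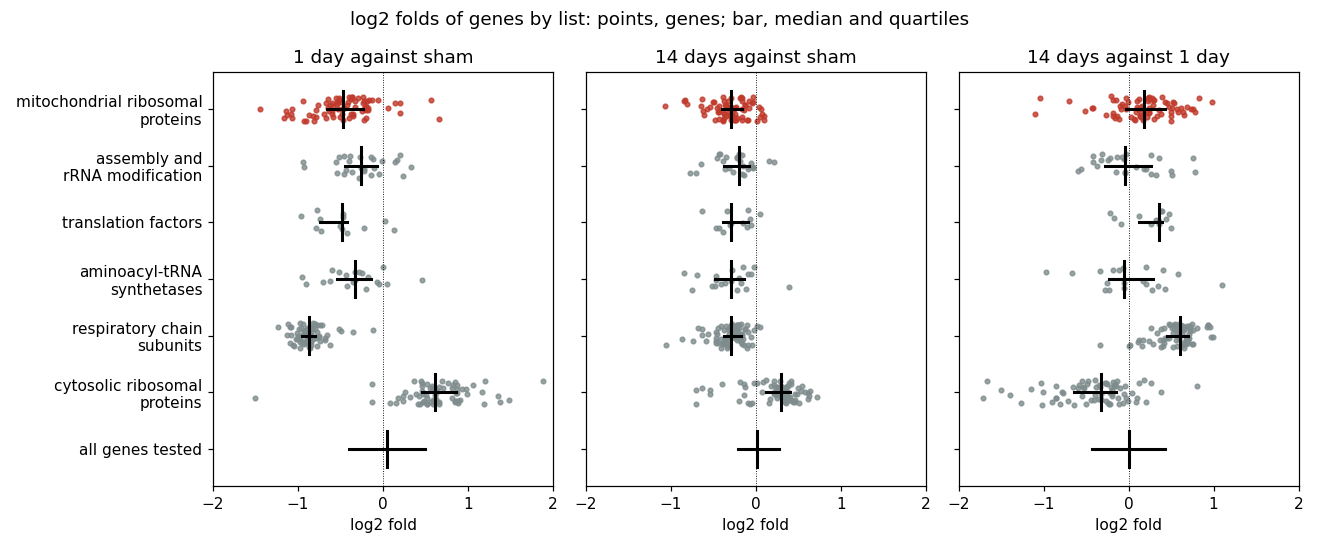
Log2 folds from the edgeR fit (x axis) by gene list (y axis) for 1 day against sham, 14 days against sham and 14 days against 1 day. Each point is a gene, the tall bar is the median and the long bar spans the quartiles; for all genes tested no points are drawn. The members have medians of -0.47, -0.29 and 0.18. Under total count alone these are 0.01, -0.20 and -0.21, with 0.53, 0.11 and -0.38 for all genes.

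Set beside the respiratory chain, the members moved less at 1 day and were more spread. Of 77 nuclear-encoded respiratory chain genes 75 fell and 0 rose at 1 day (edgeR, DESeq2 and limma-voom gave the same counts, and 0 were higher at an unadjusted p under 0.05), with a median of -0.88 and an interquartile range of 0.15, where the members had -0.47 and 0.42. Under total count alone 38 of the 77 fell and 0 rose, with a median of -0.41 where the members had 0.01. Of all genes 24.8% fell and 29.4% rose at 1 day, or 7.48% and 48.6% under total count alone. Summed, the respiratory chain came to 54.6% ± 11.1 of the sham mean at 1 day and 79.9% ± 11.4 at 14 days (SD, n = 3), where the members came to 70.2% ± 4.66 and 81.7% ± 6.67. The members' sum as a percent of that of the respiratory chain was 12.1, 13.5 and 10.3 at 1 day, 8.82, 9.43 and 9.94 at 14 days, and 8.98, 9.14 and 9.30 in sham. The 1-day libraries were all above sham, and the 14-day libraries overlapped sham. At 14 days against sham 11 of 77 respiratory chain genes fell, where 5.64% of all genes did. The median of the 77 was -0.29, the same as for the members. The differences between these lists were not tested.

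The proteins of the cytosolic ribosome went the other way at 1 day: 62 of 73 rose and 1 fell, with a median of 0.62, or 69 and 1 under total count alone. The exception was Rpl3l, a form of Rpl3 found in striated muscle, with a log2 fold of -1.51. Of all genes 29.4% rose and 24.8% fell at 1 day, or 48.6% and 7.48% under total count alone. At 14 days against sham 24 of the 73 rose and 3 fell, where 8.75% of all genes rose and 5.64% fell. The members' sum as a percent of that of the cytosolic ribosome was 43.1 ± 7.0 at 1 day, 62.4 ± 8.64 at 14 days and 88.7 ± 2.45 in sham (SD, n = 3). This ratio within a library does not depend on the scaling between libraries.

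**Figure D4:**
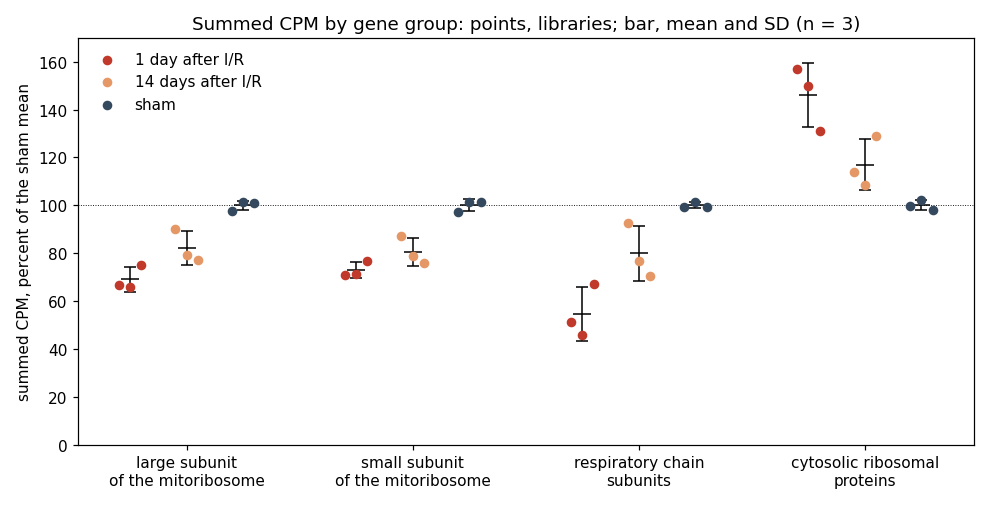
Summed CPM per library (points) as a percent of the sham mean, for the large and small subunits of the mitochondrial ribosome, the nuclear-encoded respiratory chain and the cytosolic ribosomal proteins, at 1 day, 14 days and in sham (left to right), with mean and SD (n = 3). At 1 day the large and small subunits lie at 69.2% ± 5.25 and 73.0% ± 3.20 of sham, the respiratory chain at 54.6% and the cytosolic ribosome at 146.0%, after TMM scaling; under total count alone the median 1-day log2 folds of the subunits are 0.00 and 0.08.

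Other genes of mitochondrial translation were mostly lower at 1 day relative to the median gene; under total count alone, 0 of the 5 ribosomal proteins with other names, 1 of 13 translation factors, 1 of 27 assembly genes, 1 of 20 synthetase genes, 0 of 10 transcription genes, 0 of 22 import genes and 2 of 7 mitochondrial mRNAs fell. Of all genes 7.48% fell and 48.6% rose under total count alone. After TMM scaling all 5 mitochondrial ribosomal proteins with other gene names fell at 1 day (Ptcd3, Gadd45gip1, Dap3, Chchd1 and Aurkaip1, with log2 folds of -0.84, -0.45, -0.45, -0.35 and -0.29), and at 14 days against sham Gadd45gip1 alone did, at -0.73. Of 13 translation factors 10 fell at 1 day, among them the elongation factor gene Gfm1 at -0.75 and the ribosome recycling factor gene Gfm2 at -0.47. Of 27 genes for ribosome assembly and modification of its RNA, 11 fell; Grsf1, which acts in the RNA granules of mitochondria, was at -0.95 and Fastkd2 at -0.39. Of 20 genes for aminoacyl-tRNA synthesis in mitochondria 9 fell, with Fars2 at -0.95, and 1 rose, Ears2 at 0.46. Of 10 genes for mitochondrial transcription and RNA stability 8 fell, with Lrpprc, which stabilises mitochondrial mRNAs, at -0.78. Of 22 genes for protein import 11 fell and 1 rose, the receptor gene Tomm70a at 0.34. Of the 13 mitochondrially encoded mRNAs in the count table, only 7 passed the filter on low counts and were tested. Of these 7, 6 fell, with mt-Co1 at -0.87 and mt-Cytb at -0.73. Of all genes 24.8% fell and 29.4% rose, as given above.

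At 14 days against sham 5.64% of all genes fell, against 24.8% at 1 day, and calls in these lists were also fewer. The numbers that fell were 3 of 13 translation factors, 5 of 27 assembly genes, 8 of 20 synthetase genes, 3 of 10 transcription and stability genes and 5 of 22 import genes. Under total count alone 1 import gene fell, and 0 genes of the other 4 lists, where 0.793% of all genes fell. Of 7 mitochondrial mRNAs 0 fell with edgeR, where 1 was lower at an unadjusted p under 0.05, 1 fell with DESeq2 and 0 fell with limma-voom. In these 6 lists 0 genes rose with edgeR, DESeq2 or limma-voom, and 0 were higher at an unadjusted p under 0.05.

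Members often share a start region with another gene. Of the 12706 protein-coding genes tested, 15.6% start within 1000 bases of a protein-coding gene that starts on the other strand. Of the 76 members 33 (43.4%) do. In 25 of these pairs the partner was tested and is no member. At 1 day 6 partners rose and 9 fell, where 29.4% of all tested genes rose and 24.8% fell. Of the members in these pairs 16 fell, against 53 of all 76 members. In 4 pairs the genes were called in opposite directions. How often this occurs in such pairs among all genes was not counted. Mrps18b rose (0.66) where Ppp1r10, which starts 45 bases away and encodes a subunit of nuclear protein phosphatase complexes, fell (-0.41). Mrpl13 fell (-0.70) where Mtbp rose (1.19), Mrpl44 fell (-0.41) where Wdfy1 rose (1.21), and Mrpl18 fell (-0.93) where Tcp1, a subunit of the cytosolic chaperonin, rose (0.39). In the pair Mrpl46 and Mrps11, which are both members and start 412 bases apart, both fell (-0.52 and -0.67). Exons of some pairs overlap, and without the strand setting of the counting their reads cannot be told apart.

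Of the members, 32 share exonic bases with another gene, 17 of them at least 10%. Leaving out those 17 and the members with a near-identical copy, 57 members were left, of which 41 fell and 1 rose at 1 day, 15 fell at 14 days against sham, and 20 were higher and 5 lower at 14 days than at 1 day. Their medians were -0.51, -0.29 and 0.19. Of all tested genes 24.8% fell and 29.4% rose at 1 day, and 5.64% fell at 14 days against sham. Between 14 days and 1 day 25.1% of all tested genes were higher and 26.8% lower. Mrps18b is among those left out, by its overlap with Gm16279, so the 1 that rose is Mrpl52.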

How the data were processed

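The deposited table holds raw read counts by gene. Alignment used STAR 2.7.1a and GRCm38 (mm10), per the submitters' processing notes. The counting program, its annotation, its strand setting and how it treated multiply mapped reads were not given in the sources used here. TRIzol RNA and stranded libraries are stated per the labels' protocols. Names, positions, exon lengths and GC content came from GENCODE M21, overlaps from its exons, near-identical copies from BLAST 2.17.0 (95% identity over 50% of a transcript), and promoters from RefSeq GRCm38.p6.

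The main test was edgeR's quasi-likelihood test (edgeR 4.0.16, R 4.3.3) with filterByExpr, TMM scaling and robust dispersion. All 9 libraries entered 1 fit with a shared spread, and p-values were adjusted by Benjamini-Hochberg over the 14124 genes tested, with a threshold of 0.05. SE is the size of the log2 fold over the square root of F. The steps were tested on simulated data. Alternatives were DESeq2 1.42.0, limma-voom (limma 3.58.1), size factors of DESeq2, upper-quartile scaling, total count alone, scaling without mitochondrially encoded and ribosomal RNA genes, no filter, a filter of 1 CPM in 3 libraries, an offset for GC and length, the groups compared alone, and each library left out in turn, 19 in all. Figures were drawn with matplotlib 3.10.9.

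Libraries of the same group all differed beyond sampling noise (chi-square divided by its degrees of freedom was 6.90 to 89.7) and count as 3 per group. Each is from 1 mouse per the labels, and nothing says how the mice were batched, so p-values measure the spread between these libraries.

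The members, lists and tests were chosen with earlier results of these data known. Lists are given as counts and medians beside all genes. Members named were, per comparison and direction, the 8 called with the largest log2 fold and groups that do not overlap, the 6 with the highest and 4 with the lowest level, those called against the majority, the S18 paralogs, Mrps36, and the members of the stalk, tunnel rim and central protuberance. Of other lists, the rule took the 2 called genes with the highest CPM and 1 in the other direction.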

Additional observations from a re-analysis of the deposited data

Results flagged for a closer look

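Between 14 days and 1 day after I/R, 28 members were higher and 6 lower at 14 days (edgeR adjusted p under 0.05), which is the direct test of a difference between both times, each set against the same sham libraries. Of all tested genes 25.1% were higher and 26.8% lower. The log2 folds of the 6, 14 days against 1 day, were -1.10 for Mrps18b, -1.04 for Mrpl52, -0.70 for Mrps26, -0.52 for Mrps12, -0.43 for Mrps10 and -0.42 for Mrpl17. All 6 were also lower under total count alone, as were 10 other members, where 1 member was higher and the members' median was -0.21; 38.7% of all genes were lower under that scaling.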

How the results depend on the processing

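Total count alone was the setting that moved most values: it shifted the median of all genes by the amounts given in the report, and the distance of the members from that median was -0.52, -0.31 and 0.17 under it, where it was -0.52, -0.31 and 0.17 after TMM scaling (1 day against sham, 14 days against sham, 14 days against 1 day). These distances could hardly differ, since a change of scaling shifts all genes nearly alike, and they add no support. Under total count alone 6 members rose and 9 fell at 1 day, 3 fell at 14 days against sham, and 1 was higher and 16 lower at 14 days than at 1 day. The members' medians turned to 0.0065 at 1 day and -0.21 for 14 days against 1 day. Log2 folds at 1 day turned to 0.19 for Mrpl10, 0.071 for Mrpl11, 0.11 for Mrpl22, 0.033 for Mrpl38, 0.083 for Mrpl44, 0.0094 for Mrpl47, 0.15 for Mrpl54, 0.0036 for Mrpl58 and 0.12 for Mrps34, and those of 14 days against 1 day to -0.11 for Mrpl11, -0.15 for Mrpl24, Mrpl45 and Mrps23, -0.10 for Mrpl47 and -0.046 for Mrps18a.

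With the 2 groups alone 35 members fell at 14 days against sham. Leaving out each library in turn, 1 to 2 rose and 44 to 57 fell at 1 day (medians -0.52 to -0.44), 6 to 34 fell at 14 days against sham (medians -0.35 to -0.26), and 18 to 31 were higher and 4 to 6 lower at 14 days than at 1 day (medians 0.12 to 0.25). The other settings kept these counts within 1.5 times and the medians in direction. Of 53, 20, 28 and 6 calls (lower at 1 day, lower at 14 days, higher and lower at 14 days than at 1 day), 43, 5, 18 and 4 were made in every fit that left out 1 library. No paired analysis was possible because the groups share no mouse number. Depth limits Mrpl23, Mrps36 and Mrps33, which had at most 22, 34 and 54 counts in any library. Apart from the scaling itself and the smaller number of libraries in a fit, the cause of these shifts was not tested.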

Other observations

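Across the 76 tested members, the GC content of the longest transcript had a Spearman rho of -0.41 with the log2 fold at 14 days against sham and of -0.04 with that at 1 day. The level per kilobase had a rho of -0.12 with the log2 fold at 14 days and of -0.25 with that at 1 day. These are descriptions across genes, which share the same libraries and are not independent replicates. With an offset for GC content and length, 25 members fell at 14 days and 54 at 1 day, with medians of -0.33 and -0.48.

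Among members that overlap another gene, Mrps25 (mS25) shares 69.8% of its exonic bases with Nr2c2 on the other strand. Mrps25 had 896, 948 and 907 counts in all at 1 day, 14 days and in sham, where Nr2c2 had 2082, 2950 and 1942. Mrpl53, a stalk member, shares 88.0% of its exonic bases with Gm42688 on the same strand. Gm42688 had 141, 105 and 103 counts at 1 day, 14 days and in sham, where Mrpl53 had 0, 0 and 1. The members Mrps25 and Mrpl53 are named here after their values were seen.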
